A study of Mus musculus with 6 samples.

Results

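Fc gamma receptors are the cell-surface receptors for the constant part of IgG. The mouse genes are Fcgr1, Fcgr2b, Fcgr3 and Fcgr4, and Fcer1g encodes the signalling chain that the activating receptors share. Fcgrt, which encodes the heavy chain of the neonatal Fc receptor (FcRn), was taken as the sixth gene. These 6 genes were chosen by name and each matched 1 locus, of 44794 named loci in the deposited table. The data were RNA sequencing libraries of whole spleen from 3 Sle1b.IFNγR-/- and 3 B6.Sle1b samples. Both genotypes carry Sle1b, a lupus susceptibility interval of distal chromosome 1 that holds the SLAM family genes, and both had received imiquimod, a TLR7 agonist, 3 times a week for 4 weeks. Sle1b.IFNγR-/- mice also carry a disrupted interferon-γ receptor. The sources used here give neither the disrupted receptor subunit nor the age of the mice, and no untreated group was analysed here. The study asked how interferon-γ acts on B cells in TLR7-driven lupus.

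IgG in immune complexes cross-links activating Fc gamma receptors on macrophages, monocytes, neutrophils and natural killer cells. The cytoplasmic ITAM of the FcR gamma chain is then phosphorylated by Src family kinases and recruits Syk. Fcgr2b encodes the inhibitory receptor, whose ITIM recruits the phosphatase SHIP-1 (Inpp5d), and it is the Fc gamma receptor of B cells. Mice without Fcgr2b are prone to lupus-like disease, and interferon-γ is known to induce Fcgr1 in myeloid cells.

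No receptor gene passed the test for a genotype difference. Of the 6 genes, 5 reached the mean scaled count of 10 needed for testing, and 0 of these 5 had a limma Benjamini-Hochberg adjusted p under 0.05, where the table as a whole gave 0 of 19227 loci (0%). At an unadjusted p under 0.05 the counts were 0 of 5 genes and 596 of 19227 loci (3.10%). The estimate lay below 0 for 4 of the 5, with a median log2 difference of -0.36, beside 58.1% of all tested loci and a median of -0.083. In a fit that carried the ribosomal level of the libraries as a further term, 0 of the 5 genes passed, beside 0.0416% of loci. Without B6.Sle1b replicate 1, a library described below, 0 of 5 passed, beside 0.0260% of loci. In that fit 3 of the 5 lay below 0 with a median of -0.21, beside 48.4% of all tested loci and a median of 0.019. The genotypes overlapped in all 6 genes, where 8.70% of tested loci did not overlap. In whole spleen, fewer cells of a type and less RNA per cell cannot be told apart. Values are scaled fragment counts, log2 differences are Sle1b.IFNγR-/- minus B6.Sle1b on the log2(value + 1) scale, and adjusted p-values run over all 19227 loci.

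The libraries held between 4394299 and 5960904 fragments in Sle1b.IFNγR-/- and between 5531778 and 6349827 in B6.Sle1b, of which 17.5% to 27.0% lay at named loci. The library labelled B6.Sle1b replicate 1 stood apart. Its level of 29 ribosomal protein genes, relative to the geometric mean over libraries, was 2.85, against 0.816 to 0.832 in the 3 Sle1b.IFNγR-/- libraries and 0.699 and 0.896 in the other B6.Sle1b libraries. Without it, 48.4% of tested loci lay below 0, against 58.1% with all libraries. Ifngr1, which encodes the receptor chain that binds interferon-γ, had scaled counts of 43.7, 21.4 and 23.96 in Sle1b.IFNγR-/- and 81.5, 34.5 and 63.7 in B6.Sle1b. Its transcript was therefore still counted in the knockouts and the genotypes overlapped, so this gene does not check the labels. Ifngr2 averaged 6.72 ± 2.95 in Sle1b.IFNγR-/- and 11.03 ± 3.09 in B6.Sle1b (SD, n = 3 each), under the level tested.

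**Figure D1:**
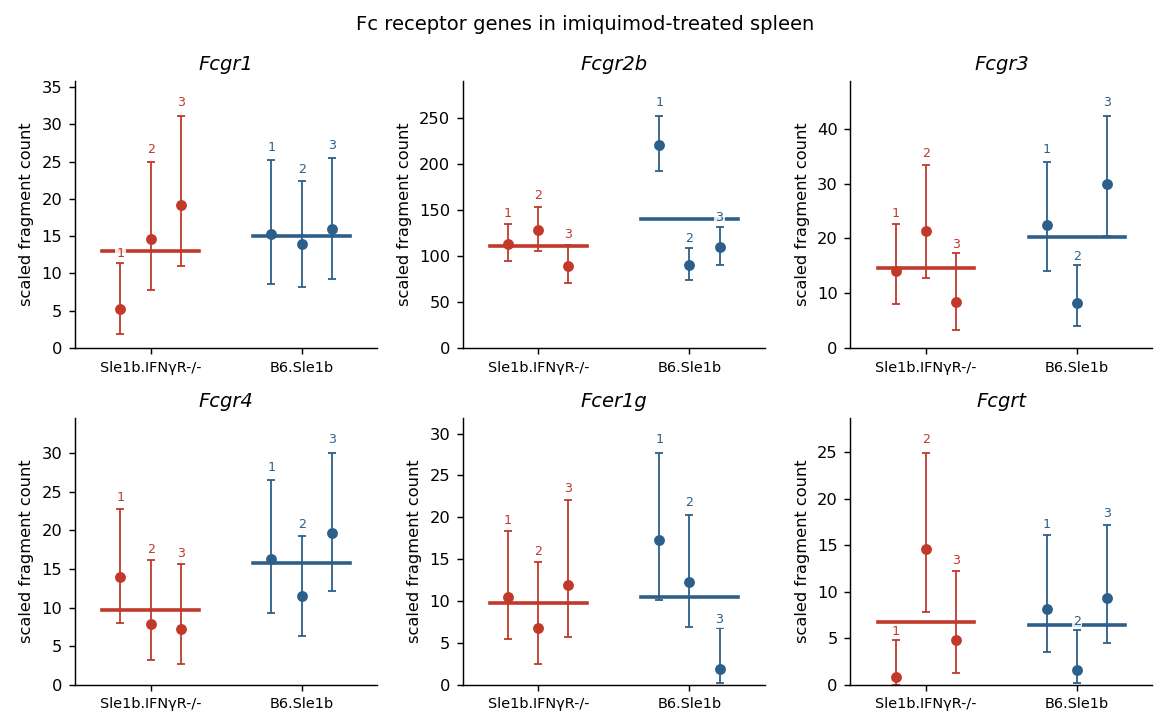
Scaled fragment count of each receptor gene in every library, with Sle1b.IFNγR-/- in red and B6.Sle1b in blue. Points are libraries, numbered by replicate, vertical lines are exact 95% Poisson intervals for counting error, and horizontal lines are group means. The genotypes overlap in all 6 panels, and Fcgr2b in B6.Sle1b replicate 1 (221.1) lies above every other library.

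Fcgr2b, the inhibitory receptor, was the most abundant of the receptor genes. It lies on chromosome 1 from 170958617 to 170976547 on the minus strand (GRCm38) and has an annotated antisense gene, Gm38204, inside it. Its scaled counts were 113.7, 128.1 and 89.8 in the Sle1b.IFNγR-/- libraries and 221.1, 90.4 and 109.7 in the B6.Sle1b libraries. One B6.Sle1b library, replicate 1, was high, and the other two lay inside the range of the knockouts. The means were 110.5 ± 19.3 in Sle1b.IFNγR-/- and 140.4 ± 70.6 in B6.Sle1b (SD, n = 3 each). The log2 difference was -0.25 (SE 0.34, 95% interval -0.99 to 0.49), with an unadjusted p of 0.48 and a limma Benjamini-Hochberg adjusted p of 0.99976. Without B6.Sle1b replicate 1 the estimate was 0.13, so the sign of the Fcgr2b difference rested on that library.

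Fcgr1 encodes the high-affinity receptor for IgG2a and IgG2c, and is carried by macrophages, monocytes and dendritic cells. It lies on chromosome 3 from 96282909 to 96293969 on the minus strand, away from the other receptor genes. Its scaled counts were 5.25, 14.6 and 19.2 in Sle1b.IFNγR-/- and 15.3, 13.98 and 15.9 in B6.Sle1b. The B6.Sle1b libraries lay close together, while the knockouts held both the lowest and the highest library. The means were 13.01 ± 7.10 in Sle1b.IFNγR-/- and 15.07 ± 0.999 in B6.Sle1b (SD, n = 3 each), from 35 fragments in the knockouts and 49 in B6.Sle1b. The log2 difference was -0.36 (SE 0.56, 95% interval -1.58 to 0.86; limma Benjamini-Hochberg adjusted p = 0.99976). Without Sle1b.IFNγR-/- replicate 1, the low library, it was 0.15.

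Fcgr3 encodes a low-affinity activating receptor of myeloid and natural killer cells. It lies on chromosome 1 from 171051174 to 171064935 on the minus strand and overlaps the microRNA gene Mir6546. Its scaled counts were 13.99, 21.4 and 8.38 in Sle1b.IFNγR-/- and 22.4, 8.22 and 29.999 in B6.Sle1b. The lowest and the highest library were both B6.Sle1b, so its own libraries spanned the knockouts. The means were 14.6 ± 6.50 in Sle1b.IFNγR-/- and 20.2 ± 11.06 in B6.Sle1b (SD, n = 3 each). The log2 difference was -0.36 (SE 0.56, 95% interval -1.58 to 0.85; limma Benjamini-Hochberg adjusted p = 0.99976), and -0.21 without B6.Sle1b replicate 1.

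Fcgr4 encodes the activating receptor of mouse monocytes, macrophages and neutrophils that binds IgG2a, IgG2c and IgG2b. It lies between Fcgr2b and Fcgr3, from 171018920 to 171029761 on the plus strand, and overlaps the small nuclear RNA gene Gm26110. Its scaled counts were 13.99, 7.87 and 7.19 in Sle1b.IFNγR-/- and 16.3, 11.5 and 19.7 in B6.Sle1b. The knockout replicates 2 and 3 lay below every B6.Sle1b library, and Sle1b.IFNγR-/- replicate 1 lay above B6.Sle1b replicate 2, which is the overlap. The means were 9.68 ± 3.75 in Sle1b.IFNγR-/- and 15.8 ± 4.11 in B6.Sle1b (SD, n = 3 each), from 29 fragments in the knockouts and 51 in B6.Sle1b. The log2 difference of -0.68 was the furthest from 0 among the receptor genes (SE 0.55, 95% interval -1.88 to 0.52; unadjusted p = 0.24; limma Benjamini-Hochberg adjusted p = 0.99976). It was the only one of the 5 tested receptor genes below 0 under all 17 alternative settings run on it, from -0.95 to -0.18, and none of them gave a call.

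Fcer1g encodes the FcR gamma chain, without which the activating receptors do not reach the cell surface in mice. It lies on chromosome 1 from 171229572 to 171234365 on the minus strand. Its scaled counts were 10.5, 6.74 and 11.98 in Sle1b.IFNγR-/- and 17.3, 12.3 and 1.87 in B6.Sle1b. B6.Sle1b replicate 3 was low with 2 fragments, under the floor of 3 fragments, and its Poisson interval of 0.227 to 6.77 scaled counts lay under those of both other B6.Sle1b libraries, which began at 10.1 and 6.90. The means were 9.74 ± 2.70 in Sle1b.IFNγR-/- and 10.5 ± 7.88 in B6.Sle1b (SD, n = 3 each). The log2 difference was 0.24 (SE 0.83, 95% interval -1.55 to 2.03; limma Benjamini-Hochberg adjusted p = 0.99976), positive although the B6.Sle1b mean scaled count was the higher. Without B6.Sle1b replicate 3 it was -0.57.

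Fcgrt encodes FcRn, which protects IgG from breakdown inside endothelial cells and macrophages and is no signalling receptor. It lies on chromosome 7 from 45092990 to 45103851 on the minus strand, overlaps the antisense gene Gm45669, and had a mean scaled count under 10. Its scaled counts were 0.874, 14.6 and 4.79 in Sle1b.IFNγR-/- and 8.15, 1.64 and 9.37 in B6.Sle1b. Low and high libraries occurred in both genotypes, with 18 fragments in the knockouts and 20 in B6.Sle1b. In a fit without the filter on low values the log2 difference was -0.19 (SE 0.95, 95% interval -2.17 to 1.79; limma Benjamini-Hochberg adjusted p = 0.99). Its partner chain β2-microglobulin, B2m, had 440.7, 443.9 and 386.9 scaled counts in Sle1b.IFNγR-/- and 2359, 314.0 and 667.5 in B6.Sle1b. Here too the genotypes overlapped and B6.Sle1b replicate 1 was the highest, and the log2 difference of B2m was -0.90 with all libraries and -0.11 without that replicate.

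**Figure D2:**
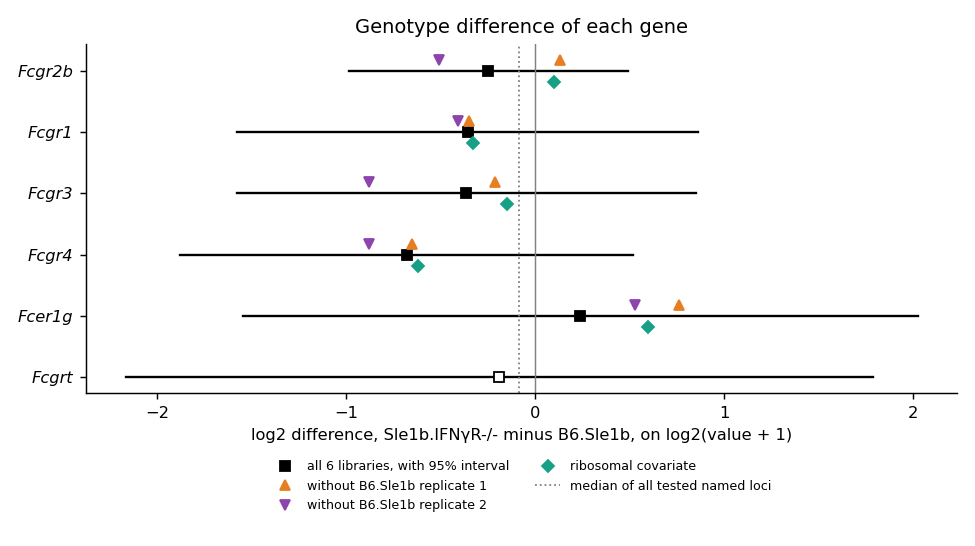
Log2 difference of each receptor gene, Sle1b.IFNγR-/- minus B6.Sle1b, on the log2(value + 1) scale. Squares with lines are the estimates and 95% intervals from all 6 libraries (open for Fcgrt, from the fit without a filter on low values), coloured marks are 3 alternative fits, and the dotted line is the median of all tested named loci (-0.083). All 6 intervals hold 0, and Fcgr2b moves to the other side of 0 without B6.Sle1b replicate 1 (0.13) and with the ribosomal covariate (0.10).

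Per kilobase of exon, averaged over all 6 libraries, Fcgr2b stood at 21.7 ± 8.48 scaled counts (SD, n = 6), ahead of Fcer1g at 11.6 ± 6.05, Fcgr4 at 10.2 ± 3.88 and Fcgr3 at 10.02, with libraries between 4.74 and 17.3. Fcgr1 followed at 5.42 ± 1.80 and Fcgrt at 3.13 ± 2.47. Each gene overlapped its neighbour in this order: the range of Fcgr2b began at 15.5 and that of Fcer1g ended at 19.8. The middle 3 genes changed places between genotypes. In Sle1b.IFNγR-/- they ran Fcer1g 11.1 ± 3.09, Fcgr3 8.40 ± 3.75 and Fcgr4 7.71 ± 2.98, and in B6.Sle1b they ran Fcgr4 12.6 ± 3.27, Fcer1g 12.02 ± 9.02 and Fcgr3 11.6 ± 6.37 (scaled counts per kilobase, SD, n = 3), with overlapping ranges between each pair of these genes within a genotype. The annotated exons include retained introns, which lowers the per-kilobase level of a gene such as Fcgr2b.

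Genes that spleen is not known to use gave a scale for these levels. The table held 1435 odorant, pheromone and trace amine receptor loci (Olfr, Vmn1r, Vmn2r and Taar genes), with a median of 4.65 scaled counts and a 95th percentile of 36.5. Only 0.0697% of them reached the mean of Fcgr2b, against 15.3% for Fcgr3, 19.3% for Fcgr1, 21.1% for Fcgr4, 26.1% for Fcer1g and 37.98% for Fcgrt. Per kilobase, over the 1432 with an annotated length, the shares were 2.03% for Fcgr2b, 6.43% for Fcer1g, 7.54% for Fcgr4, 7.61% for Fcgr3, 18.1% for Fcgr1 and 30.7% for Fcgrt. Fcgr2b was therefore the receptor gene that stood clear of this background by scaled count, and the other 5 lay under its 95th percentile on both scales. Differences in these 5 are read with that limit.

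The share of Fcgr2b among fragments at the Fc gamma receptor genes can be read within each library, where scaling between libraries has no part. Whole spleen pools B cells with myeloid and natural killer cells, so this share is not a balance within any cell. The activating genes together gave 29 to 70 fragments per library, and each lay under the 95th percentile of the background above. Reads that fit both Fcgr2b and Fcgr3 limit the share further, as described below. Fcgr2b made up 77.4%, 74.5% and 72.1% of the fragments at the 4 Fc gamma receptor genes in the Sle1b.IFNγR-/- libraries (exact 95% intervals 70.3 to 83.5, 66.8 to 81.2 and 62.5 to 80.5). It made up 80.4%, 72.85% and 62.6% in the B6.Sle1b libraries (75.1 to 84.9, 65.0 to 79.8 and 55.2 to 69.5). The B6.Sle1b libraries held both the highest and the lowest share, and the intervals of replicates 1 and 3 did not meet. The mean share was 74.7 ± 2.64% in Sle1b.IFNγR-/- and 71.9 ± 8.94% in B6.Sle1b (SD, n = 3 each), a difference of 2.74 percentage points with a two-sided exact permutation p of 0.8, where 3 against 3 libraries allow no p under 0.1. Leaving out B6.Sle1b replicate 3 turned the difference to -1.94 points. Per kilobase the Fcgr2b share was 47.4 ± 0.905% in Sle1b.IFNγR-/- and 43.98 ± 10.99% in B6.Sle1b (SD, n = 3 each, two-sided exact permutation p = 0.7). On that scale the ratio of activating genes to Fcgr2b was 1.08, 1.09 and 1.16 in the knockouts. In B6.Sle1b it was 0.833, 1.24 and 2.065. The retained introns in the annotated exons of Fcgr2b lower its share per kilobase. Intervals cover counting error only, since amplified fragments are not independent molecules.

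**Figure D3:**
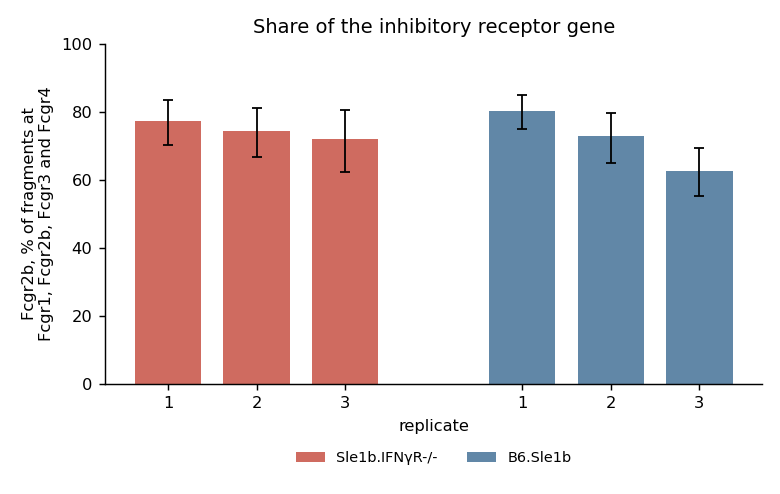
Fcgr2b as a percentage of the fragments counted at Fcgr1, Fcgr2b, Fcgr3 and Fcgr4 in each library, with Sle1b.IFNγR-/- in red and B6.Sle1b in blue. Bars start at 0 and error bars are exact 95% binomial intervals. The knockouts lie between 72.1% and 77.4%, inside the 62.6% to 80.4% of the B6.Sle1b libraries.

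Fcgr2b and Fcgr3 are recent duplicates, and part of their transcripts cannot be separated by sequence. Between their longest coding transcripts in GENCODE M21, 491 of 509 aligned bases were identical (96.46%), against 69.97% to 73.11% over the alignable parts of the other Fc gamma receptor pairs. The longest identical stretch was 129 bases of spliced transcript from these chromosome 1 genes, and it encodes part of the IgG-binding ectodomain. It is shown because a read that falls in it fits both genes.
Fcgr2b and Fcgr3, shared stretch: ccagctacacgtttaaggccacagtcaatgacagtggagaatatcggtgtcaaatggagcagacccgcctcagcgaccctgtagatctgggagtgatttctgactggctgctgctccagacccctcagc
Of the 1733 distinct 50-base words in Fcgr3 transcripts, 166 (9.58%) also occurred in Fcgr2b and in no other gene. Fcgr2b had 5685 such words, of which the same 166 were shared with Fcgr3 and 4.38% with any gene. Fcgr1, Fcgr4, Fcer1g and Fcgrt shared 0. How the authors' counting placed reads of the shared stretch is not given, so the values of Fcgr3, the lower of the pair, carry that uncertainty.

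The promoter windows searched differed in their matches to the letters of elements through which interferon-γ and myeloid factors are known to act. Windows from RefSeq (GRCm38.p6), from 250 bases before to 50 after the annotated start, were found for all 6 genes. They were searched on both strands for GAS (TTCNNNGAA, the interferon-γ activated sequence), the ISRE core (GAAA, any 2 bases and GAAA again) and the PU.1 core (GAGGAA, a factor of myeloid and B cells). The Fcgr1 window held a GAS match 109 bases before the start and a PU.1 match 55 bases before it. The Fcgr4 window held an ISRE match 73 bases and a PU.1 match 22 bases before the start, and Fcgr3 held a PU.1 match 6 bases before its first start. No match overlapped another. Fcgr2b, Fcer1g and Fcgrt held no match to these letters in this window. The Fcgr3 and Fcgr2b windows lie inside the gene spans given above, so starts further upstream in those spans were not searched. Of all 32851 windows, 8.30% held GAS, 3.44% the ISRE core and 28.3% the PU.1 core, so a match is common and marks no site by itself. The 3 activating receptors and Fcgr2b are printed 5′ to 3′ with the matches in capitals, PU.1 on the opposite strand as TTCCTC. The coordinates are those of the printed window.
Fcgr1, chr3:96293920-96294219, minus strand: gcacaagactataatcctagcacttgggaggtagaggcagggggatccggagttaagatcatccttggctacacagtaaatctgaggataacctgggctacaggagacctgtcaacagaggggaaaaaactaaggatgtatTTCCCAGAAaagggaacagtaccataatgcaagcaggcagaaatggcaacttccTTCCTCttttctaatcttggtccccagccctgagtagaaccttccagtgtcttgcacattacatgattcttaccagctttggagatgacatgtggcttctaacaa
Fcgr4, chr1:171018676-171018975, plus strand: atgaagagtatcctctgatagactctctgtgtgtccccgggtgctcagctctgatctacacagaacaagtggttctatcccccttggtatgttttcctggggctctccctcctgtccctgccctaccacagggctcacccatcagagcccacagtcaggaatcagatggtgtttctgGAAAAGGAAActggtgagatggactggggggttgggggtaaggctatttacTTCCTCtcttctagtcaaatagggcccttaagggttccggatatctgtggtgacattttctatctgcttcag
Fcgr3, chr1:171059354-171059653, minus strand: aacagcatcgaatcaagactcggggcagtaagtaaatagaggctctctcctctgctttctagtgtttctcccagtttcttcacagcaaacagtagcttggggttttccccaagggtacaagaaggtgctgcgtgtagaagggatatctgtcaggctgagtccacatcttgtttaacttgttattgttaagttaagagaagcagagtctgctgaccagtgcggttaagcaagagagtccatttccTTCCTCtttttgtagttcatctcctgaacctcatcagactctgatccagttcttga
Fcgr2b, chr1:170976022-170976321, minus strand: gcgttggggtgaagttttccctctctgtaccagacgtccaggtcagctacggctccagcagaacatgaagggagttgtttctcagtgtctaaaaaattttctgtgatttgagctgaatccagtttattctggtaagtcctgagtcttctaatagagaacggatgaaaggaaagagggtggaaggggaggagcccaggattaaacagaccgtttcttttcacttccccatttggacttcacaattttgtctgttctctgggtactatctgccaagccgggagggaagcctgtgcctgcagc
Set beside the expression values, the log2 differences were -0.36 for Fcgr1, -0.68 for Fcgr4, -0.36 for Fcgr3 and -0.25 for Fcgr2b, and their 95% intervals overlapped throughout.

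The IgG ligands of these receptors had the lowest median among the 25 gene lists examined. For all 4 IgG constant region genes, every Sle1b.IFNγR-/- library lay below every B6.Sle1b library, an order found in 5.19% of tested loci, and all 4 had an unadjusted p under 0.05, though 0 passed the limma Benjamini-Hochberg threshold with all libraries. In the fit without B6.Sle1b replicate 1 and in that with the ribosomal covariate, 2 of the 4 passed, Ighg2c (limma Benjamini-Hochberg adjusted p = 0.011 and 0.00010) and Ighg3 (0.011 and 0.00061), beside 5 and 8 of 19227 loci. Ighg2c, a subclass bound by the Fcgr1 and Fcgr4 receptors, had 213.4, 236.0 and 263.5 scaled counts in Sle1b.IFNγR-/- and 7274, 512.2 and 821.2 in B6.Sle1b. Its log2 difference was -2.61 (SE 0.69) with all libraries and -1.45 without B6.Sle1b replicate 1. Ighg3, a subclass that low-affinity Fc gamma receptors bind poorly, followed with -2.36 and -1.35. The values were -1.63 and -0.59 for Ighg2b and -0.83 and -0.29 for Ighg1. Summed over the 4 genes, IgG stood at 1006, 1036 and 1142 scaled counts in the knockouts and 16557, 1777 and 2243 in B6.Sle1b, without overlap. The sum over the 6 receptor genes was 158.3, 193.3 and 141.4 in the knockouts and 300.6, 138.1 and 186.6 in B6.Sle1b, where the genotypes overlapped. The median of the 4 ligand genes was -1.99 with all libraries and -0.97 without B6.Sle1b replicate 1. Plasma cell markers (11 of 12 matched) had 8 of 8 tested genes below 0 with and without B6.Sle1b replicate 1, medians of -1.24 and -0.47, and Tnfrsf17 at 0 in all libraries. Their sum lay between 315.0 and 328.1 scaled counts in the knockouts and between 327.2 and 2146 in B6.Sle1b, and their part in the IgG values was not tested.

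**Figure D4:**
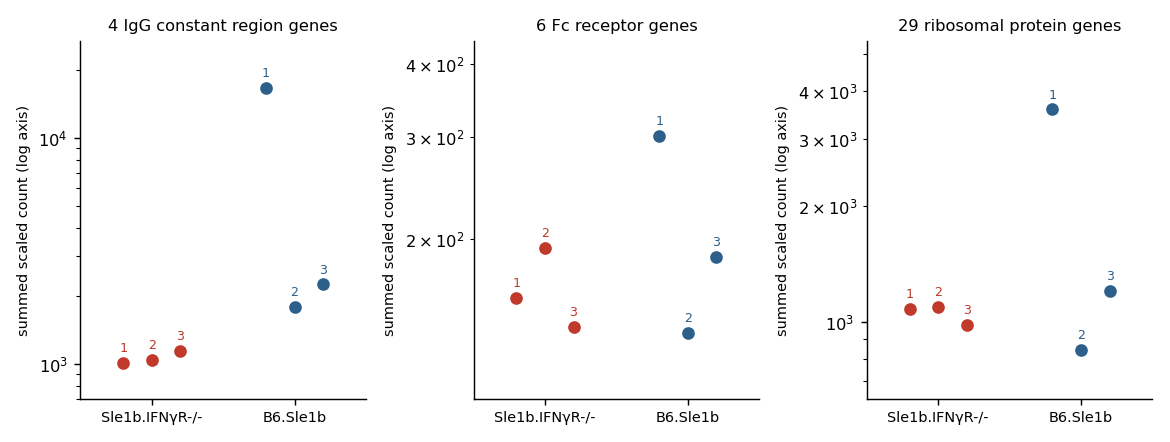
Summed scaled counts (log axes) of the 4 IgG constant region genes, the 6 Fc receptor genes and 29 ribosomal protein genes in each library, numbered by replicate, with Sle1b.IFNγR-/- in red and B6.Sle1b in blue. The IgG sums of the knockouts (1006 to 1142) lie below all B6.Sle1b libraries (1777 to 16557), the receptor sums overlap, and B6.Sle1b replicate 1 is the highest library in each panel.

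Of the signalling genes behind the receptors, none passed the threshold with all libraries, without B6.Sle1b replicate 1 or with the ribosomal covariate. The proximal ITAM pathway, from Src kinases to phospholipase Cγ2, had 12 of 16 tested genes below 0 and 4 above, with a median of -0.30. Without B6.Sle1b replicate 1 only 4 of the 16 lay below 0, and the median was 0.09. The adaptors Lat2 and Blnk had log2 differences of -0.72 and -0.50 with all libraries, and -0.71 and -0.16 without that replicate. Syk itself, the kinase that the phosphorylated gamma chain recruits, had a log2 difference of -0.23 with all libraries and 0.12 without that replicate, on which its sign rested. It was named outside the rule for naming genes.

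The inhibitory list held other ITIM receptors as well as phosphatases, so it is wider than the signalling of Fcgr2b. Of its genes, 11 of 11 tested lay below 0 with a median of -0.39, beside 58.1% of all tested loci. Without B6.Sle1b replicate 1, 8 of 11 lay below 0 with a median of -0.24, beside 48.4% of loci. With scaling to the ribosomal protein genes the list median was 0.16, beside 0.45 for all tested loci. Inpp5d, the SHIP-1 phosphatase that Fcgr2b recruits, had 39.3, 48.3 and 51.5 scaled counts in Sle1b.IFNγR-/- and 112.1, 59.2 and 81.6 in B6.Sle1b. All 3 knockouts lay below all 3 B6.Sle1b libraries, an order found in 5.19% of tested loci. The log2 difference of Inpp5d was -0.81 (SE 0.32), with an unadjusted p of 0.027 and a limma Benjamini-Hochberg adjusted p of 0.99976. Without B6.Sle1b replicate 1 it was -0.58. Lilrb4, an ITIM receptor of myeloid and plasma cells whose locus is merged with Gp49a in the table, differed by -0.84 with all libraries and -0.47 without that replicate. The values were -0.73 and -0.29 for Ptpn6, the SHP-1 phosphatase.

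Among other Fc receptors and Fc receptor-like genes, 7 of 9 tested lay below 0 (median -0.43), and 6 of 9 without B6.Sle1b replicate 1 (median -0.23). Pigr, which carries polymeric IgA and IgM across epithelia, had 33.2, 60.7 and 32.3 scaled counts in Sle1b.IFNγR-/- and 75.4, 70.7 and 76.9 in B6.Sle1b. The genotypes did not overlap for Pigr, which also held for 8.70% of tested loci. Its log2 difference was -0.87 with all libraries (limma unadjusted p = 0.021, limma Benjamini-Hochberg adjusted p = 0.99976) and -0.85 with the ribosomal level as a covariate. Fcrl5, an Fc receptor-like gene of B cells and plasma cells, differed by -1.58 (-1.14 without that replicate), and Trim21, the cytosolic antibody receptor, by -0.64 (-0.48), both with overlapping genotypes. Receptors that pair with the FcR gamma chain had 4 of 5 tested below 0 (median -0.05), led by Klrb1c (-0.97), Clec4d (-0.68) and the platelet collagen receptor Gp6 (0.08). Without that replicate 2 of these 5 lay below 0 (median 0.13). ITAM adaptors had 4 of 5 below 0 (median -0.18), with Cd79a at -1.10, Tyrobp at -0.20 and Cd3e at -0.11. Without that replicate 1 of the 5 did (median 0.28): Cd79a lay at -0.46, while Tyrobp at 0.47 and Cd3e at 0.02 changed sign. Most of these adaptors serve the antigen receptors of lymphocytes, while Tyrobp serves myeloid and natural killer cells. Phagocytosis and NADPH oxidase genes had 10 of 15 below 0 (median -0.40), among them Itgax (-0.60), the oxidase subunit Cybb (-1.03) and Rac2 (-0.71). Without that replicate 8 of these 15 lay below 0 (median -0.03), with Itgax at -0.43, Cybb at -0.26 and Rac2 at -0.27.

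Interferon-γ induced genes as a list had 24 of 28 below 0 (median -0.61), and 22 of 28 without B6.Sle1b replicate 1 (median -0.29). Those of smallest p were Cxcl9 at -3.14 (-2.52 without that replicate), Psmb9 at -1.59 (-0.88) and Serpina3f at -1.12 (-0.80). With the ribosomal covariate 1 of the 28 passed, Cxcl9 (limma Benjamini-Hochberg adjusted p = 0.012), beside 8 of 19227 loci. Cxcl9 did not pass in the main fit (limma Benjamini-Hochberg adjusted p = 0.99976) or without B6.Sle1b replicate 1 (0.16).

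**Figure D5:**
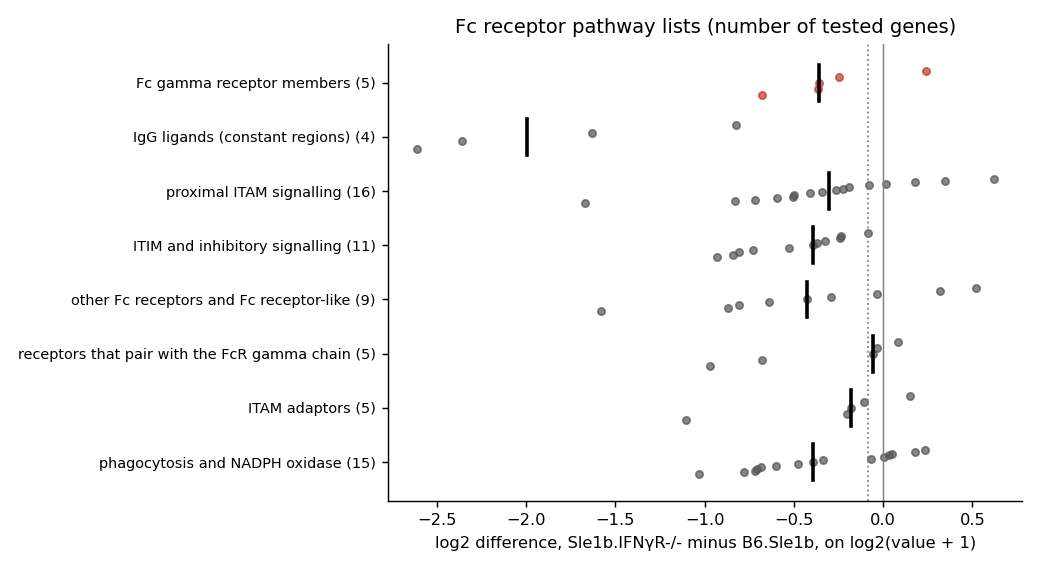
Log2 difference, Sle1b.IFNγR-/- minus B6.Sle1b, of each tested gene (points) in the receptor list and 7 lists of genes around it, with the number tested in parentheses. Bars are list medians and the dotted line is the median of all tested named loci (-0.083). The IgG constant regions have the lowest median (-1.99), and the receptor genes have a median of -0.36. All 11 tested ITIM and inhibitory genes lie below 0, beside 58.1% of all tested loci.

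Marker genes of the cells that carry these receptors were summed in each library. Red pulp macrophage markers (17 of 17 matched) summed to between 859 and 981 scaled counts in Sle1b.IFNγR-/- and between 598 and 1979 in B6.Sle1b, with 10 of 17 tested below 0 (5 of 17 without B6.Sle1b replicate 1). Monocyte markers (17 of 17) summed to between 587 and 634 in the knockouts and between 389 and 1848 in B6.Sle1b, and neutrophil markers (15 of 15) to between 316 and 374 in the knockouts and between 331 and 634 in B6.Sle1b. Of the tested genes, 11 of 13 monocyte and 6 of 9 neutrophil markers lay below 0. Without B6.Sle1b replicate 1 these counts were 5 of 13 (median 0.27) and 4 of 9 (median 0.04). B cell markers (15 of 15) summed to between 1445 and 1572 in the knockouts and between 1195 and 2799 in B6.Sle1b, with 12 of 15 tested below 0 (4 of 15 without B6.Sle1b replicate 1). The 2 genotypes overlapped in each of these sums, and B6.Sle1b replicate 1 was the highest library in each, as it was for Fcgr2b. Natural killer cell markers (11 of 11) gave 62.3 to 70.8 in the knockouts and 48.5 to 86.6 in B6.Sle1b, and dendritic cell markers (15 of 16) gave 491 to 521 in the knockouts and 430.0 to 1049 in B6.Sle1b. Mast cell and basophil markers (10 of 10) gave 218 to 287 in the knockouts and 251 to 275 in B6.Sle1b, with Il4 at 0 throughout. The IgE receptor of these cells also uses the gamma chain, but Fcer1a, another chain of that receptor, averaged only 0.146 scaled counts. Among other markers, 7 of 10 T cell genes, 5 of 10 endothelial and stromal genes, 5 of 12 erythroid and megakaryocyte genes, and 3 of 4 adipose and pancreas genes lay below 0. Without that replicate these counts were 5, 6, 1 and 3. No marker gene of these cells passed in either fit. The markers of smallest p were Slc11a1 and Cd68 for red pulp macrophages, with -0.89 and -0.93 using all libraries and -0.73 and -0.43 without that replicate. This pair does not stand for the red pulp list, where 7 of 17 lay above 0 using all libraries. The median of that list was -0.06 using all libraries and 0.27 without that replicate. For monocytes the markers of smallest p were Cd300e and Ly6c2 (-2.06 and -1.08, against -1.74 and -0.39 without that replicate). For neutrophils they were Cxcr2 and Ngp (-0.44 and -0.66, against -0.34 and -0.10). For B cells they were Cr2, the complement receptor of marginal zone and follicular B cells, and Cd79a, given above. For Cr2 the genotypes did not overlap, which also held for 8.70% of tested loci. Cr2 had 116.3, 98.9 and 82.7 scaled counts in the knockouts and 66.2, 30.4 and 74.997 in B6.Sle1b. Its log2 difference was 0.87 (limma unadjusted p = 0.031, limma Benjamini-Hochberg adjusted p = 0.99976) and 1.02 without that replicate. The part of cell composition in the receptor values was not tested.

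All 15 B cell and all 17 red pulp macrophage markers reached the level tested.

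The receptor genes differed from each other in their pattern over the libraries. Pairwise Pearson r of log2(value + 1) over the 6 libraries ran from -0.59 for Fcgr3 with Fcer1g to 0.67 for Fcgr1 with Fcgrt, and was 0.61 for Fcgr2b with Fcgr3, which share sequence as shown above. Fcer1g had a negative r with Fcgr1, Fcgr3, Fcgr4 and Fcgrt, and 0.28 with Fcgr2b. Among all tested loci, the patterns nearest to Fcgr2b were those of Ptcd3 (r = 0.998), Rgl1 (0.996) and Aaas (0.994). Those nearest to Fcgr1 were Hyal2 (0.987), Zfp493 (0.982) and Klhl29 (0.981), to Fcgr3 Commd5 (0.986), Dennd3 (0.984) and Eps8 (0.984), and to Fcgr4 Grm2 (0.987), Zfp422 (0.979) and Nck2 (0.977). Fcer1g was nearest to Tmem135 (0.992), Rab3c (0.989) and Ptn (0.984), and Fcgrt to Erc2 (0.986), Pyy (0.985) and Mcoln3 (0.985). With 19227 loci and 6 points, which share libraries and depth, values this high are a description only.

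Of the receptor genes, 4 lie within 275.7 kb of distal chromosome 1, the arm that also carries Sle1b. Fcgr2b is 42.4 kb from Fcgr4, Fcgr4 is 21.4 kb from Fcgr3, and Fcer1g lies a further 164.6 kb on, 354.3 kb before Ly9, a SLAM family gene. Whether the congenic interval of these mice reaches the receptor cluster is not given in the sources used here, and both genotypes carry Sle1b. Around the cluster, 26 neighbouring genes were tested, the 4 receptor genes included. Of these, 18 lay below 0 and 8 above, with a median of -0.27, beside 58.1% of all tested loci below 0. The genotypes overlapped in all 26, where 8.70% of tested loci did not overlap. Without B6.Sle1b replicate 1, 16 lay below 0, beside 48.4% of all tested loci, and the median was -0.05. Smallest by p were Arhgap30 (-0.73, and -0.23 without that replicate), Cd244 (-0.77 and -0.40) and Sdhc (-1.20 and -0.87). The Fc receptor-like genes beside Fcgr2b pointed apart, with Fcrlb at 1.00 and Fcrla at -0.29 (1.60 and -0.07 without that replicate). Slamf1, Slamf6 and Cd84 lay at -0.30, -0.33 and -0.19 with all libraries, and at -0.03, -0.03 and -0.02 without it. Ly9, Slamf7 and Cd48, also of the SLAM family, lay at -0.56, -0.18 and 0.12 with all libraries. Without that replicate they lay at -0.07, 0.33 and 1.28.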

How the data were processed

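RNA of 6 spleen samples was extracted with TRIzol and made into libraries with the NuGEN Ovation V2 amplification kit, per the labels' protocols. The submitters' processing notes name CASAVA, TopHat2 2.0.9 and Cufflinks 2.2.1, with GRCm38 as the build. Whether counting used strand, and what was done with multiply mapping reads, is not given in the sources used here, so genes that overlap, antisense ones included, may share fragments. The unit is a signal: fragments per locus, put on a common scale between libraries by quartile by the authors, as the name and headers of the deposited table say. The table had 1530481 rows for 426574 loci, of which 44794 had a gene name, and 18 further columns of per-sample values were not used. Of the positive values in a library, 99.8% equalled a whole number of steps (tolerance 0.01 step), with a step of 0.822 to 1.198 scaled counts. The step gave the fragments quoted and a floor of 3 fragments, or 2.47 to 3.59 scaled counts. Because not all values came out whole, 2 planned count tests were not run.

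The 19227 named loci whose mean over the libraries reached 10 were compared by limma 3.58.1 (R 4.3.3) on the log2(value + 1) scale, with an intensity trend and no term but genotype, at a Benjamini-Hochberg adjusted p under 0.05. The pseudocount shrinks the differences of genes with low values. The procedure was tested on simulated data with the same dispersion for every gene and no deviating library. That test therefore does not cover a library such as B6.Sle1b replicate 1. Since the labels do not say whether the libraries come from different mice, p-values cover the spread between these libraries, which may be technical. No 2 libraries were identical, and within-genotype correlations ran from 0.619 to 0.785. Python 3.11.15 with pandas 2.3.3, numpy 2.4.6, scipy 1.17.1 and matplotlib 3.10.9 was used for the rest. Coordinates and exon lengths came from GENCODE M21, and promoters from RefSeq.

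The receptor genes and the 25 gene lists (359 entries, 347 matched) were chosen with earlier results of these data known. Genes named are the 6 receptor genes, up to 3 of smallest p per pathway list, and the 3 most alike in pattern per receptor gene, skipping immunoglobulin segments, small RNAs, pseudogenes, predicted genes and clones. One signalling gene that the rule takes is not reported here. Cell type lists are given as sums and counts, with the 2 of smallest p for the main receptor-bearing cells. Ifngr1, Ifngr2, Syk, Fcer1a and all IgG constant region genes were named outside that rule, after their values were seen. So were the neighbours Fcrlb, Fcrla, Slamf1, Slamf6, Cd84, Ly9, Slamf7 and Cd48. The exact permutation tests of the Fcgr2b share were added once its values were known. Alternatives covered scaling, filter, pseudocount, covariate, robust fit, replicate block, all loci and each library left out.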

Additional observations from a re-analysis of the deposited data

How the results depend on the processing

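No alternative brought a receptor gene past the threshold: the lowest limma Benjamini-Hochberg adjusted p over the alternatives was 0.678, for Fcgr3. Scaling to the ribosomal protein genes moved the median of all loci from -0.083 to 0.45 and, with it, Fcgr2b to 0.31, Fcgr1 to 0.14 and Fcgr3 to 0.16, all still below that median. The ribosomal covariate turned Fcgr2b to 0.10. Over the 6 fits that leave out 1 library each, Fcgr2b ran from -0.51 to 0.13, Fcgr1 from -0.70 to 0.15, Fcer1g from -0.57 to 0.76 and Fcgr4 from -0.95 to -0.52. Fcgr3 ran from -0.88 to a value that rounds to 0. The Fcgr2b share of receptor fragments differed by between -1.94 and 6.96 percentage points when 1 library was left out, a setting added once the values were known. The count of called loci, 0 of 19227 (596 at an unadjusted p under 0.05), was 8 with the ribosomal covariate, 6 over all 152353 loci, 1 with total scaling and 0 to 5 when 1 library was left out, 5 each without B6.Sle1b replicate 1 and replicate 2. The cause was not tested. A minimum mean of 50 left only Fcgr2b among the receptor genes.

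Replicate numbers did not pair the libraries: same-numbered libraries correlated by 0.012, -0.027 and -0.011 in their deviations. The fit with the replicate number as a block called 0 loci and gave -0.25 for Fcgr2b, -0.36 for Fcgr1, -0.36 for Fcgr3, -0.68 for Fcgr4 and 0.24 for Fcer1g. Depth limits the receptor genes other than Fcgr2b, which rested on 28 to 64 fragments per genotype among those tested.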
